A study of Mus musculus with 2 samples.

Results

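The MS4A genes encode small membrane proteins, and 5 of them with clear reads in these spleen libraries are described here: Ms4a1, Ms4a4b, Ms4a4c, Ms4a6b and Ms4a6c. They were taken by symbol, as 5 of the 30457 genes listed in either count table, and all 5 were listed in both tables (29292 genes for TAS-Seq and 25459 for the BD WTA kit). A further 14 of the 19 listed genes named Ms4a or Tmem176 served as the rest of the family. Both libraries came from 1 cell suspension. Spleens of 3 female C57BL/6J mice, 10 weeks old, were pooled. The mice carried Lewis lung carcinoma cells placed under the skin, had been given 200 µg of anti-CD4 antibody on days 5 and 9, and were killed on day 12. Red cells were lysed, the suspension was frozen and thawed, and 2000 cells were loaded on 1 BD Rhapsody nanowell cartridge. After cDNA synthesis the barcoded beads were divided between the 2 methods. TAS-Seq tails cDNA with terminal transferase and stops the tail with a dideoxy terminator, whereas the BD WTA kit amplifies by random priming. The comparison asks how the amplification method affects what is read from cells of the same spleen suspension. Each library holds different cells, so a difference between the methods can also be a difference between cells. With 1 library for each method and 1 pool of animals there is no replicate check, so no test was run. Every interval below is a 95% interval that covers counting error only, and reads are PCR products counted without molecular identifiers, so the true uncertainty is larger.

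MS4A proteins cross the membrane several times with both ends in the cytoplasm, and many of them sit beside immune receptors and tune their signalling. Ms4a1 encodes CD20, the B-cell surface protein that is bound by therapeutic antibodies and lies near the B-cell receptor. Ms4a4b is a T-cell and natural killer (NK) cell gene whose product associates with the costimulatory receptor GITR, whereas Ms4a4c, Ms4a6b and Ms4a6c are mouse paralogs with less studied roles in lymphoid and myeloid cells.

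All 5 genes lie in 1 cluster on chromosome 19 (GRCm38). Ms4a1 is on the minus strand at chr19:11249675-11266241. The paralogs follow on the plus strand, Ms4a4c at chr19:11404770-11427246, Ms4a4b at chr19:11443553-11467055, Ms4a6c at chr19:11469366-11482192 and Ms4a6b at chr19:11516512-11531256. Both pairs of close paralogs retain similar sequence in front of their start sites, which is printed here because the members of a pair were highest in different cell classes. The stretches are RefSeq sequence of GRCm38.p6 on the plus strand, 5′ to 3′, and capitals mark bases that differ between the members of a pair, gaps included.
Ms4a4b, chr19:11443422-11443552: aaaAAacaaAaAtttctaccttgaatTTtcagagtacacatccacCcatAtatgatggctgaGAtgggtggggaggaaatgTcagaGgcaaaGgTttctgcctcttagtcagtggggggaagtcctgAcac
Ms4a4c, chr19:11407528-11407659: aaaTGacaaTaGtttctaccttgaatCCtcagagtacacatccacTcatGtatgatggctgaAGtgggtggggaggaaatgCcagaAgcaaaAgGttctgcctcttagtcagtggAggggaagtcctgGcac
Ms4a6b, chr19:11518311-11518452: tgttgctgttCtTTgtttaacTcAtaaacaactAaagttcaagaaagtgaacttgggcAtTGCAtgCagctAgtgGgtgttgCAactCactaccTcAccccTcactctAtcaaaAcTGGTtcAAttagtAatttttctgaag
Ms4a6c, chr19:11469193-11469330: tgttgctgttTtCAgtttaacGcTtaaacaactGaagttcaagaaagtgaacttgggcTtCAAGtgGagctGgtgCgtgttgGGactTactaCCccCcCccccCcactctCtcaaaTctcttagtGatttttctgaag
The Ms4a4b and Ms4a4c stretches had 116 identical bases in 132 aligned columns (87.9%), and those of Ms4a6b and Ms4a6c had 113 in 144 (78.5%). The stretches of Ms4a4b and Ms4a6c lie outside their own annotated genes, and those of Ms4a4c and Ms4a6b lie in introns of longer annotated transcripts of the same gene. Farther upstream, the Ms4a4c window alone among these 4 held the octamer ATTTGCAT, a motif bound by POU factors such as those of B cells. It is shown in capitals and begins 170 bases before the RefSeq start site.
Ms4a4c, chr19:11407451-11407538: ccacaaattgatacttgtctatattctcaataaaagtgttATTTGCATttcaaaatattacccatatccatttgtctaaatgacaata
The octamer, searched on both strands, was present in 570 of 32851 promoter windows of 300 bases (1.74%). A match is a description of letters and not a binding site. For Ms4a1 no such window was at hand.

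The deposited tables held 736 barcodes for TAS-Seq and 716 for the BD WTA kit, with 38656790 and 31608259 reads, and no barcode was shared. After filtering, 732 and 708 cells remained, with medians of 46557 reads (15378 to 262041) and 38426 reads (12343 to 291602). Cells were clustered without any Ms4a or Tmem176 gene and named from marker lists. B-like cells numbered 413 with TAS-Seq and 372 with the kit, T-like cells 275 and 284, NK-like cells 20 and 26, and neutrophil-like cells 10 and 11. A cluster of 14 and 15 cells, led by Fcer1g, Tyrobp, Cst3, Mpeg1 and Ctsb, had 1 of 10 monocyte or macrophage markers raised and stays unnamed. Levels are given as CPM, the reads of a gene for every 1000000 reads summed over the cells of a class, and they are not compared between genes because reads were not scaled by transcript length.

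Ms4a1, the CD20 gene, was a B-cell gene in both libraries. Summed over B-like cells its level was 2323 CPM (2302 to 2343) with TAS-Seq and 1349 CPM (1332 to 1367) with the kit. Single B-like cells ranged from 0 to 7884 CPM around a median of 2115 with TAS-Seq, and from 0 to 7920 around a median of 1149 with the kit. In T-like cells it stood at 20.5 CPM (18.2 to 22.9) and 1.7 CPM (1.05 to 2.59). Below B-like cells, the levels in NK-like cells (23.8 and 14.4 CPM) and neutrophil-like cells (29.1 and 22.7 CPM) had overlapping intervals in each library, and the unnamed cluster read 63.8 and 8.12 CPM. The T-like level was 113.6-fold lower than the B-like level with TAS-Seq, a log2 ratio of -6.83 (-6.99 to -6.67), and 794.9-fold lower with the kit, a log2 ratio of -9.63 (-10.33 to -9.02).

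Ms4a4b, the GITR-associated gene, was read in T-like and NK-like cells. T-like cells had 1255 CPM (1237 to 1273) with TAS-Seq and 1196 CPM (1177 to 1216) with the kit, with cell medians of 997.4 and 1022 CPM. NK-like cells had 1712 CPM (1637 to 1790) and 1879 CPM (1800 to 1961). The NK-like level was thus above the T-like level in each library, by 0.45 (0.38 to 0.52) and 0.65 (0.58 to 0.72) on the log2 scale, which is 1.36-fold and 1.57-fold, although these classes held 20 and 26 NK-like cells whose 5 highest cells carried 54% and 50.8% of the reads. B-like cells stood at 87.5 and 34.3 CPM, and 5 of them carried 61.6% and 51.2% of those reads. Neutrophil-like cells (10.6 and 22.7 CPM) and the unnamed cluster (15.2 and 1.02 CPM) had the lowest levels, with overlapping intervals between them for TAS-Seq, and with the kit the neutrophil-like interval overlapped that of B-like cells.

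Ms4a4c, the neighbour and closest paralog of Ms4a4b, had another pattern. It was highest in B-like cells, at 179.7 CPM (174.0 to 185.5) with TAS-Seq and 160.7 CPM (154.7 to 166.9) with the kit, and lower in T-like cells, at 90.3 CPM (85.6 to 95.3) and 42.1 CPM (38.6 to 45.9). Its reads were concentrated in few cells: the median B-like cell had 0 CPM in both libraries while the highest reached 2729 and 4331 CPM. NK-like cells had 26.4 and 24.2 CPM. The unnamed cluster, at 3.04 CPM from 3 reads and 13.2 CPM from 13 reads, was near the floor, as were neutrophil-like cells with 1 read and with none of 11 cells (at most 8.51 CPM, the level of 3 reads).

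Ms4a6b was a T-cell gene in these libraries. Its level in T-like cells was 721.4 CPM (707.9 to 735.1) with TAS-Seq and 558.8 CPM (545.7 to 572.1) with the kit, and the T-like medians were 630.1 and 247.7 CPM. Unlike Ms4a4b, it was low in NK-like cells, at 61.6 CPM (48 to 77.8) and 153.4 CPM (131.3 to 178.2), which is 11.7-fold and 3.64-fold under the T-like level. B-like cells had 73.3 and 28.9 CPM and the unnamed cluster 88.1 and 59.9 CPM. With TAS-Seq the intervals of B-like, NK-like and unnamed cells overlapped in turn, whereas with the kit the 3 classes were ordered NK-like, unnamed and B-like beyond counting error.

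Ms4a6c, the paralog of Ms4a6b, was highest in the unnamed cluster of Fcer1g, Tyrobp and Cst3 cells, at 334.1 CPM (299.0 to 372.2) with TAS-Seq and 783.6 CPM (729.3 to 840.9) with the kit. These levels rest on few cells: 8 of 14 and 9 of 15 cells had a read, and 5 cells held 93.6% and 97.7% of the reads. NK-like cells had 63.3 and 114.8 CPM, T-like cells 59.2 and 26.6 CPM and B-like cells 24.7 and 16.7 CPM. With TAS-Seq the NK-like and T-like intervals overlapped, as did those of B-like and neutrophil-like cells (26.4 CPM), and with the kit no neutrophil-like cell had a read (at most 8.51 CPM).

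**Figure D1:**
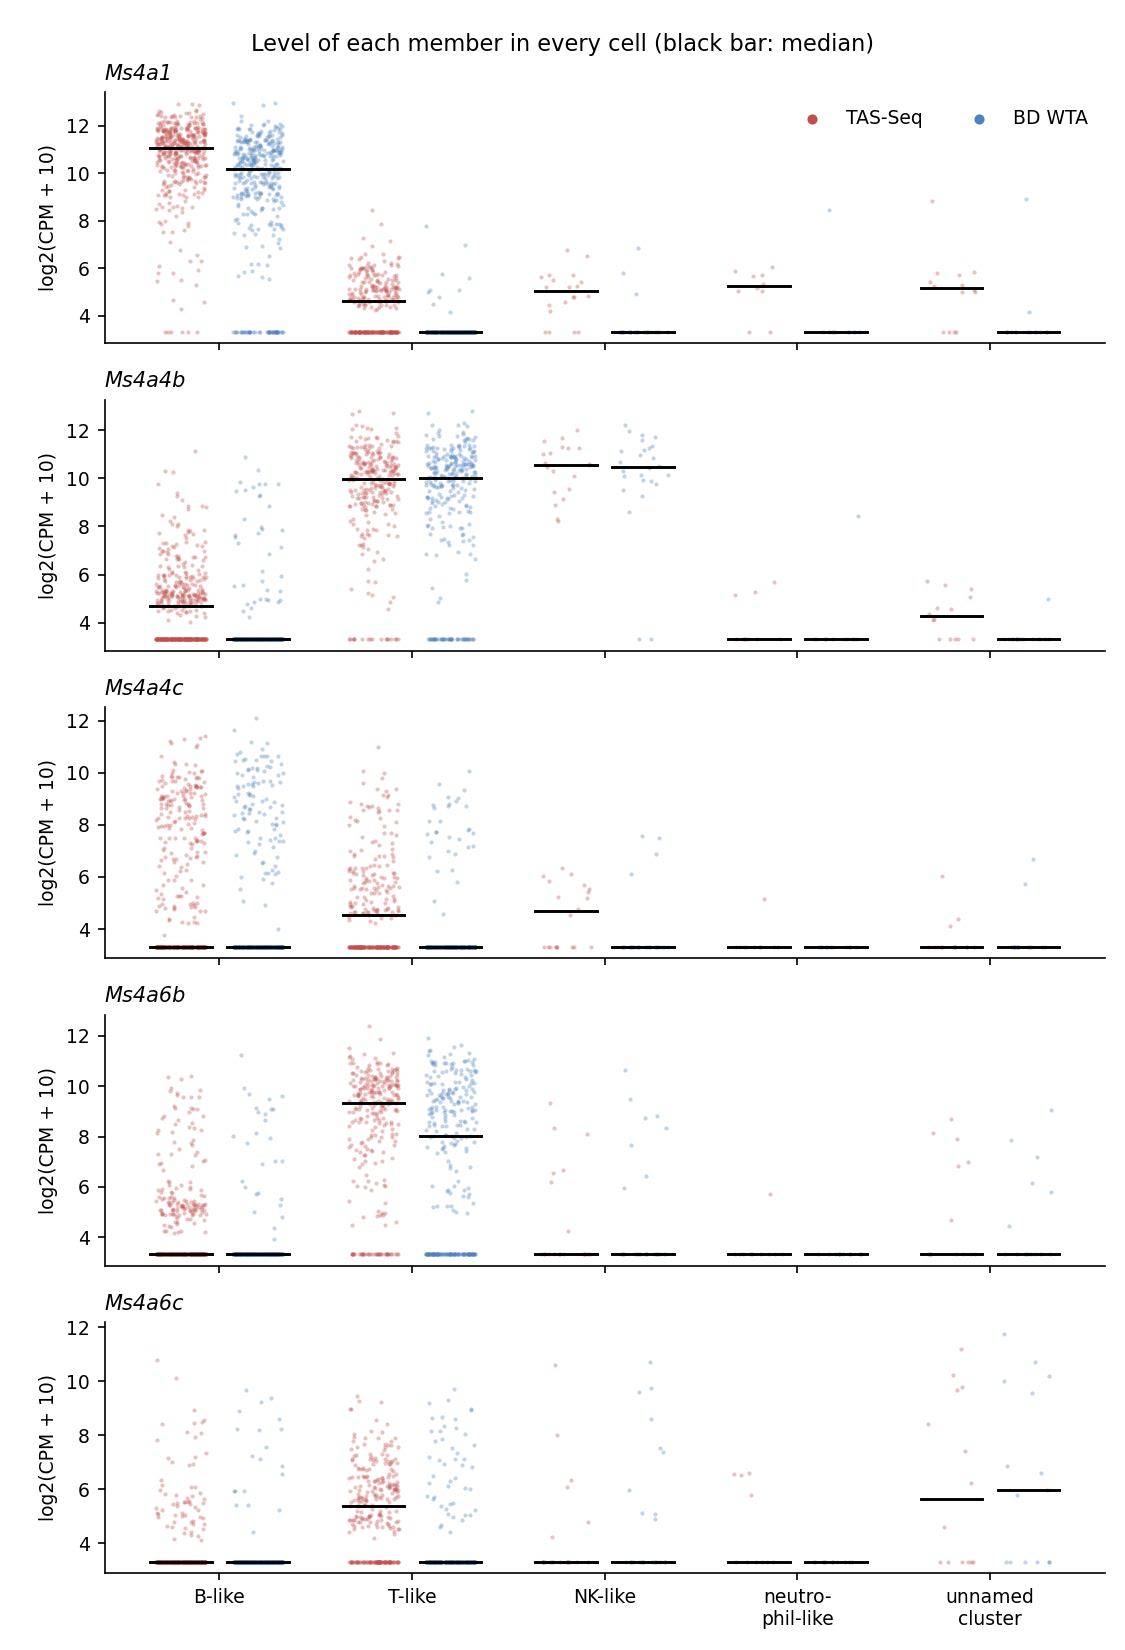
Level of each member in every filtered cell, as log2(CPM + 10) on the vertical axis, by cell class, with TAS-Seq cells in red, BD WTA cells in blue and black bars for medians. Ms4a1 fills the B-like columns around medians of 2115 and 1149 CPM, Ms4a4b the T-like and NK-like columns, and Ms4a6b the T-like columns. Ms4a4c and Ms4a6c are read in a minority of cells of most classes. The exceptions for Ms4a4c are TAS-Seq T-like cells (52.7%) and NK-like cells (55%). For Ms4a6c they are TAS-Seq T-like cells (70.2%) and the unnamed cluster (57.1% with TAS-Seq and 60% with the kit). Ms4a1 is read in 58.5% of the same TAS-Seq T-like cells.

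The contrast of T-like with B-like cells separated the members of each library into groups. Read as at least 2-fold higher in T-like cells were Ms4a4b, Ms4a6b and Ms4a6c with TAS-Seq, 3 of 5 members against 8.04% of 9992 genes, and Ms4a4b and Ms4a6b with the kit, 2 of 5 against 11.6% of 9673 genes. At least 2-fold lower was Ms4a1 with TAS-Seq, 1 of 5 against 16.4%, and Ms4a1 and Ms4a4c with the kit, 2 of 5 against 16.4%. Ms4a4b was higher by 3.84 (3.77 to 3.91) and 5.12 (5.00 to 5.25) on the log2 scale, and Ms4a6b by 3.30 (3.22 to 3.38) and 4.27 (4.14 to 4.41). Ms4a4c was lower by the T-like to B-like log2 ratios of -0.99 (-1.08 to -0.90) and -1.93 (-2.07 to -1.80), on either side of the 2-fold line. Ms4a6c had log2 ratios of 1.26 (1.10 to 1.42) and 0.67 (0.44 to 0.91), and when the BD WTA library was clustered alone, which left no cell unnamed, the latter became -1.33 and the Ms4a1 ratio -4.70.

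The list of genes known to work with these proteins was read in the same contrast. Of 8 CD20 and B-cell receptor neighbours, 7 of 7 genes tested were at least 2-fold lower in T-like cells in both libraries. Cd79a, a signalling chain of the B-cell receptor, stood at 2988 CPM in B-like and 44.6 CPM in T-like cells with TAS-Seq, and at 4610 and 20.8 CPM with the kit. Several genes of this list, Cd79a among them, also named the B-like class, so their direction was fixed by that choice. Tnfrsf18, which encodes GITR, was higher in T-like cells in both, by 1.88 and 1.38 on the log2 scale. Of the T-cell subset genes, 11 of 14 tested were at least 2-fold higher in T-like cells with TAS-Seq and 10 of 13 with the kit, and none was that much lower. Of 5 B-cell subset genes, 3 were at least 2-fold lower in both libraries. Cr2 and Ighd of this list also named the B-like class, so their direction was fixed in the same way. Interferon-stimulated genes were mixed: 4 of 10 were higher and 1 lower with TAS-Seq, and 1 was higher and 3 lower with the kit. Their median log2 ratios were 0.35 and 0.39, against -0.10 and -0.02 over all genes tested. Over all genes, 8.04% with TAS-Seq and 11.6% with the kit were at least 2-fold higher in T-like cells, and 16.4% were lower in each library.

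In NK-like against T-like cells the members divided differently. Ms4a6b was at least 2-fold lower in both libraries and Ms4a4c in TAS-Seq, giving 2 of 5 members lower with TAS-Seq (27.6% of 9623 genes were) and 1 of 5 with the kit (27.9% of 8508 genes). None was at least 2-fold higher with TAS-Seq (23.8% of genes were) and 2 of 5 were with the kit (21.5%), Ms4a6c and Ms4a1. The Ms4a1 value rests on 16 reads in 3 NK-like cells and 21 reads in T-like cells. These shares of members are close to those over all genes in so small a class.

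The unnamed cluster was set against all other cells of its library. Ms4a6c was 8.42-fold higher with TAS-Seq and 32.5-fold higher with the kit, log2 ratios of 3.07 (2.90 to 3.25) and 5.02 (4.88 to 5.17), where 22.1% and 21.2% of genes were at least 2-fold higher. The other 4 members were at least 2-fold lower in both libraries, against 30.9% and 37.9% of genes. In this cluster 9 of 10 and 10 of 10 monocyte or macrophage markers had reads, summing to 1930 and 5800 CPM, and the 6 conventional dendritic markers summed to 1144 and 1016 CPM. The 4 plasmacytoid dendritic markers summed to 2327 CPM with TAS-Seq and all 4 were at 0 with the kit, so the cluster did not hold the same mixture in both libraries. Among its cells with at least 3 monocyte or macrophage markers, 4 of 5 and 5 of 6 had Ms4a6c reads, with medians of 812.9 and 629.0 CPM. Of 3 TAS-Seq cells with at least 3 plasmacytoid markers, 1 had Ms4a6c reads, at 14.3 CPM. Of cells with at least 3 conventional dendritic markers, 0 of 1 with TAS-Seq and 1 of 2 with the kit had Ms4a6c reads. That cell of the kit stood at 1031 CPM.

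**Figure D2:**
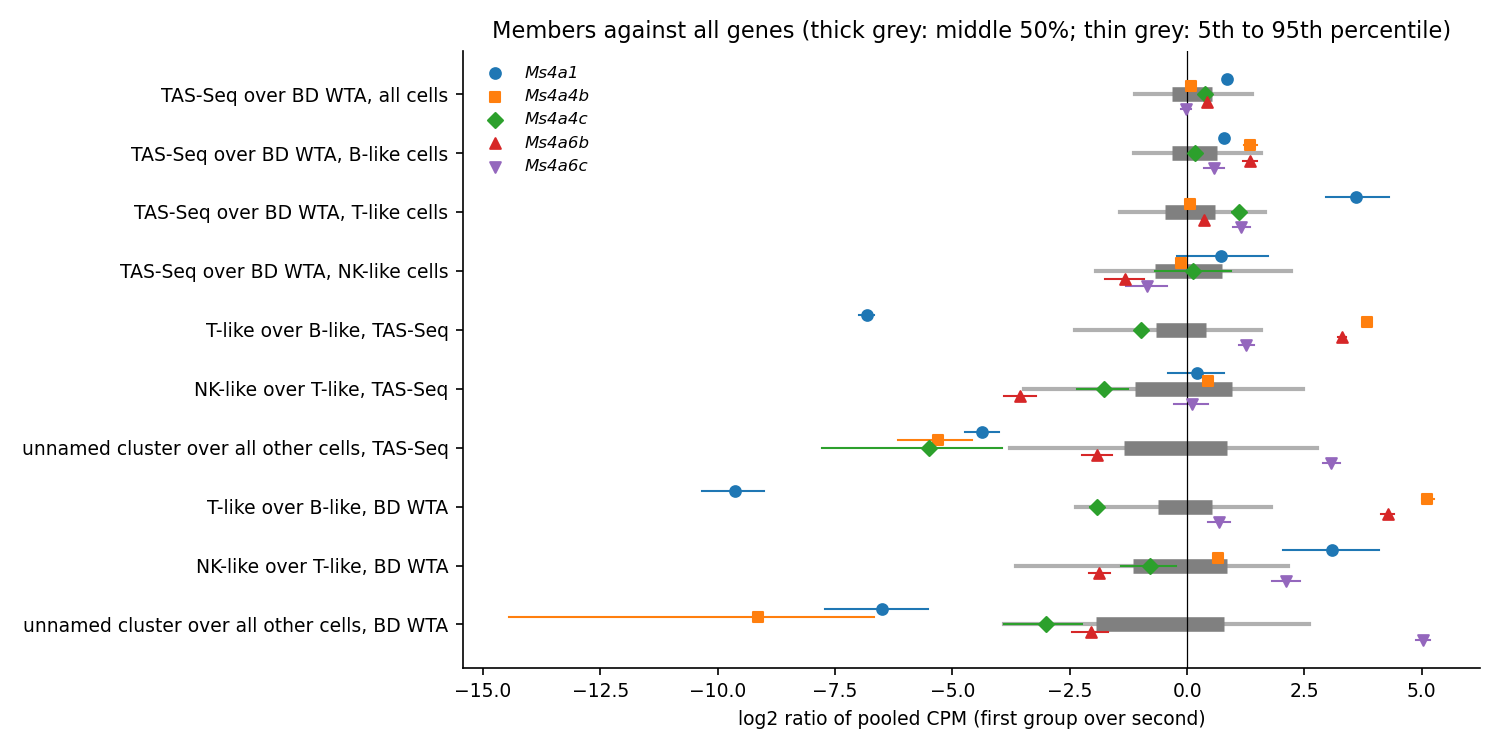
Log2 ratio of summed CPM for the 5 members in each comparison (coloured points, with 95% counting intervals) over the middle 50% (thick grey) and the 5th to 95th percentile (thin grey) of all genes tested. Ms4a1 lies at -6.83 and -9.63 in T-like over B-like cells, Ms4a4b and Ms4a6b lie beyond the 95th percentile there, and in TAS-Seq over BD WTA for all cells no member passes 2-fold.

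Between the methods, no member differed by 2-fold over all cells. The TAS-Seq over BD WTA log2 ratio was 0.84 (0.82 to 0.86) for Ms4a1, 0.08 (0.05 to 0.11) for Ms4a4b, 0.38 (0.32 to 0.45) for Ms4a4c, 0.42 (0.38 to 0.46) for Ms4a6b and -0.02 (-0.12 to 0.08) for Ms4a6c. The median of the members was 0.38 and that of all 10036 genes 0.10, with 10.0% of genes at least 2-fold higher and 5.89% at least 2-fold lower. Within B-like cells Ms4a1, in its main cell class, was 1.72-fold higher with TAS-Seq, and within T-like cells Ms4a4b was 1.05-fold and Ms4a6b 1.29-fold higher. In B-like cells the members that passed 2-fold were Ms4a4b, at 87.5 against 34.3 CPM, and Ms4a6b, at 73.3 against 28.9 CPM, 2 of 5 members where 13.3% of genes were higher and 6.58% lower. In T-like cells those were Ms4a1, at 20.5 against 1.7 CPM, a log2 ratio of 3.59 (2.95 to 4.30), Ms4a4c, at 90.3 against 42.1 CPM, and Ms4a6c, at 59.2 against 26.6 CPM, 3 of 5 members where 13.8% of genes were higher and 10.5% lower. In NK-like cells Ms4a6b was lower with TAS-Seq, at 61.6 against 153.4 CPM, 1 of 5 members where 16.8% of genes were lower and 19.1% higher, with 70 and 171 reads in all. In the unnamed cluster, where the levels rest on few cells and the cell mixture differed, Ms4a6c read 334.1 CPM with TAS-Seq and 783.6 CPM with the kit.

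Reads of a gene outside its main class were spread differently by the 2 methods. To compare cells at equal depth, each cell was thinned to 20000 reads, which kept 707 of the 732 cells for TAS-Seq and 645 of the 708 for the kit. At least 1 Ms4a1 read was found in 390 of 400 B-like cells with TAS-Seq (97.5%, 95.5 to 98.8, exact binomial interval) and in 303 of 338 with the kit (89.6%, 85.9 to 92.7). In T-like cells, which should lack CD20, the shares were 95 of 265 (35.8%, 30.1 to 41.9) and 3 of 262 (1.15%, 0.237 to 3.31), and without thinning 58.5% and 3.52%. Nearly all of these T-like cells had 1 to 4 reads: at 5 reads or more the shares were 0.755% and 0 of 262 cells, with an exact upper limit of 1.4%. No expression is read from a TAS-Seq share at 1 read that lies at or below about 35.8%, and shares at 5 reads are given beside such shares. In the smaller TAS-Seq classes the Ms4a1 share at 1 read was higher, at 55% of NK-like, 50% of neutrophil-like and 75% of unnamed cells. In those classes no expression is read from 1-read shares up to these values. The B-cell gene Cd79a also read higher in TAS-Seq T-like cells, at 44.6 against 20.8 CPM, and 3 TAS-Seq and 2 BD WTA cells carried the markers of both B and T cells. Their part in the Ms4a1 share was not tested.

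At 1 read, the TAS-Seq shares of Ms4a4b and Ms4a6b in B-like cells were near or below that of Ms4a1 in T-like cells, whereas the kit's shares were above its own value of 1.15%. Ms4a4b reads in B-like cells were found in 36.2% with TAS-Seq and 9.47% with the kit, and at 5 reads in 4.5% (2.69 to 7.02) and 4.44% (2.5 to 7.21). Ms4a6b reads in B-like cells gave 25.8% and 6.21%, and at 5 reads 7% (4.7 to 9.96) and 4.14% (2.28 to 6.85). At 5 reads these low shares were thus higher than those of Ms4a1 in T-like cells in both libraries, with intervals that touched for Ms4a4b with TAS-Seq. For Ms4a4c the T-like share of 35.8% with TAS-Seq equalled that of Ms4a1, but at 5 reads it was 12.1% (8.41 to 16.6) with TAS-Seq and 4.96% (2.67 to 8.34) with the kit, above the Ms4a1 shares at that minimum. In the B-like and T-like main classes the shares were also lower at 5 reads than at 1. For Ms4a4b in T-like cells they went from 92.8% to 84.2% with TAS-Seq and from 84.4% to 77.5% with the kit, and in NK-like cells they were 95% and 95.7% at 5 reads. For Ms4a6b in T-like cells they went from 82.6% to 71.3% and from 65.3% to 52.7%. For Ms4a4c in B-like cells they went from 42.5% to 26.5% and from 28.7% to 21.3%.

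Ms4a6c also differed between methods in T-like cells at 1 read and not beyond counting error at 5. At least 1 read was found in 47.9% (41.8 to 54.1) with TAS-Seq and 14.9% (10.8 to 19.8) with the kit, a difference of 33 percentage points (25.4 to 40.1). At 5 reads the shares were 4.53% (2.36 to 7.78) and 5.34% (2.95 to 8.8), a difference of -0.815 points (-4.74 to 3.05). B-like cells at 1 read stood at 9.75% and 5.03%, so the TAS-Seq reads in T-like cells were more frequent than in B-like cells of the same depth, yet mostly 1 to 4 to a cell. In the unnamed cluster 7 of 12 cells had an Ms4a6c read in each library, and 5 with TAS-Seq and 4 with the kit had at least 5. Of Ms4a1, 9 of these 12 TAS-Seq cells had a read and 1 had at least 5, against 0 of 12 with the kit.

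**Figure D3:**
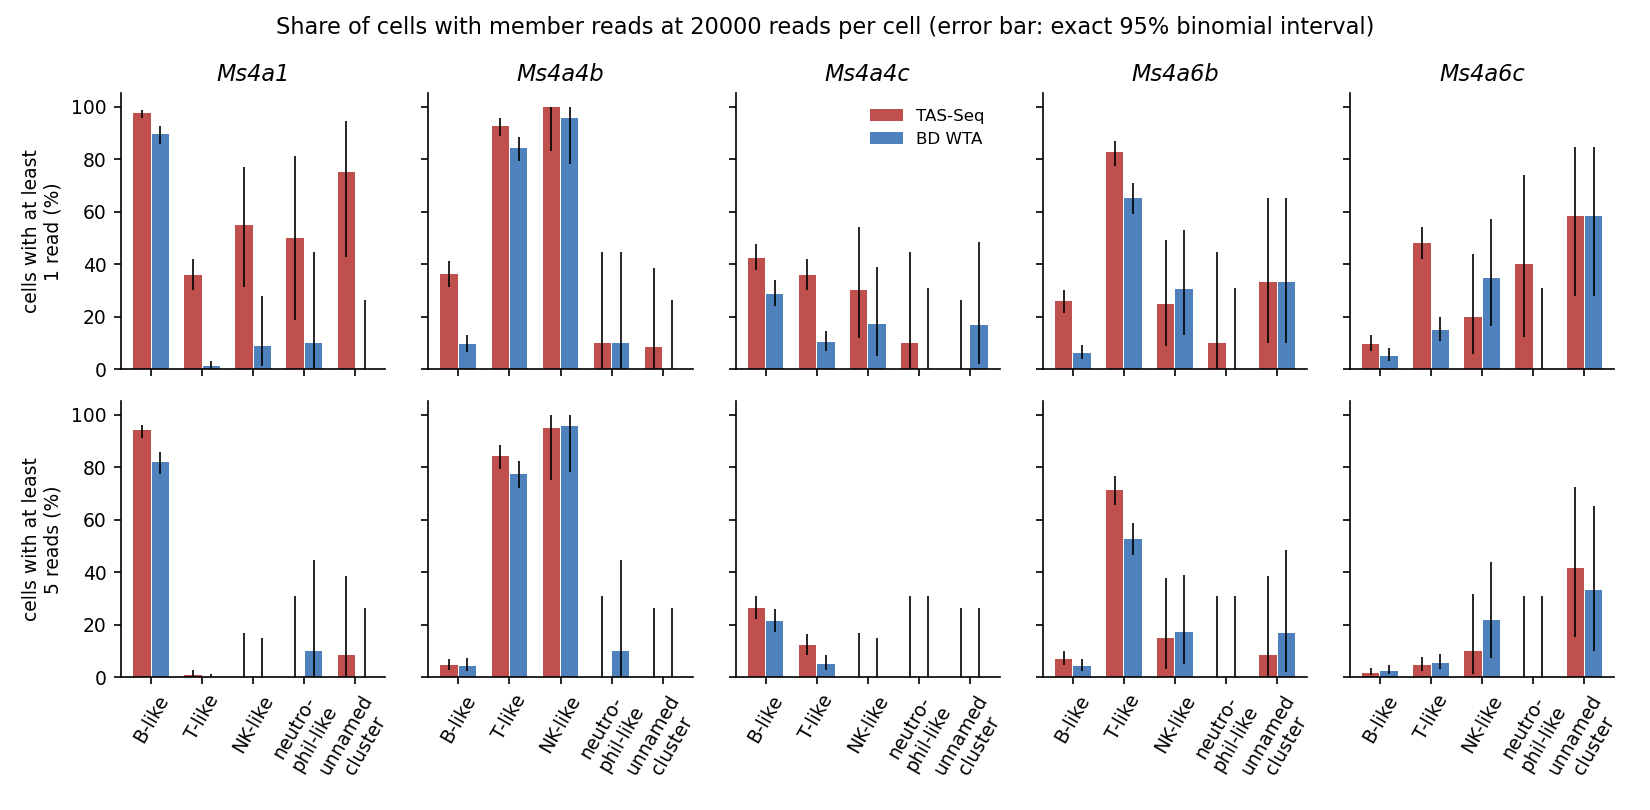
Share of cells (percent) with at least 1 read (top) or at least 5 reads (bottom) of each member at 20000 reads per cell, by class, for TAS-Seq (red) and BD WTA (blue), with exact 95% binomial intervals. At 1 read the TAS-Seq bars of all 5 members are the taller ones in B-like and in T-like cells, such as Ms4a1 in T-like cells at 35.8% against 1.15%, and at 5 reads these last shares are 0.755% and 0%.

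Within B-like cells, Ms4a1 and Ms4a4c had opposite orders in the subsets compared here, and the Ms4a1 difference was smaller with the kit. Cells were divided by at least 1 read of Fcer2a, which encodes CD23 of follicular B cells, and of Cr2. The latter encodes complement receptor CD21 and is high in marginal zone B cells. A single TAS-Seq read of either gene marks B-cell subsets poorly. Without thinning, 88 and 96 of 275 TAS-Seq T-like cells had a read of Fcer2a and of Cr2, and 1 and 2 had at least 5. Cells with reads of both genes or of neither are not compared. Cells with Fcer2a and no Cr2 reads (88 and 85) had 251.7 CPM of Ms4a4c with TAS-Seq and 212.4 CPM with the kit, and cells with Cr2 and no Fcer2a reads (72 and 62) had 140.3 and 95.2 CPM. The log2 ratio was 0.84 (0.60 to 1.09) and 1.16 (0.85 to 1.47). Ms4a1 was lower in the Fcer2a cells, at 1805 against 2706 CPM with TAS-Seq and 1296 against 1494 CPM with the kit. Clusters gave the same order. The B-like cluster led by Plac8, Mzb1 and Cr2 had 3027 and 1380 CPM of Ms4a1 and 59.7 and 82.8 CPM of Ms4a4c, whereas the cluster led by Ighd, Cd79a and H2-Eb1 had 1952 and 1216 CPM of Ms4a1 and 243.2 and 259.6 CPM of Ms4a4c. The Plac8 cluster was also the deepest, with medians of 86096 and 78065 reads a cell against 37844 and 32682, and the part of depth in this order was not tested.

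T-like cells were divided by reads of the coreceptors. Cells with Cd4 and no Cd8 reads were present despite the antibody, 61 with TAS-Seq and 68 with the kit, beside 127 and 113 with Cd8 and no Cd4 reads. Ms4a4c was higher in the Cd8 cells, at 110.6 against 44.3 CPM with TAS-Seq and 37.2 against 7.35 CPM with the kit, log2 ratios of 1.32 (0.90 to 1.77) and 2.34 (1.39 to 3.45), the last resting on 10 reads in 3 Cd4 cells. Ms4a4b had overlapping intervals with TAS-Seq, at 1265 (1222 to 1310) against 1243 CPM (1181 to 1307), and was higher in the Cd8 cells with the kit, at 1336 (1289 to 1384) against 1069 CPM (1015 to 1126). Ms4a6b had 733.1 against 659.0 CPM with TAS-Seq and 566.4 against 528.7 CPM with the kit, with overlapping intervals in each library.

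T-like cells were also divided by at least 1 read of Ccl5, a chemokine gene of memory and effector cells. With TAS-Seq a single Ccl5 read marks such cells poorly. Without thinning, 113 of 275 T-like and 128 of 413 B-like cells had a Ccl5 read, and 46 and 3 had at least 5. Ms4a4b was higher in Ccl5 cells (76 and 38), at 1373 against 1200 CPM and 1478 against 1112 CPM, log2 ratios of 0.19 (0.12 to 0.27) and 0.41 (0.32 to 0.50). Ms4a6b was lower in them, at 650.7 against 738.1 CPM and 377.6 against 590.6 CPM, log2 ratios of -0.18 (-0.29 to -0.08) and -0.65 (-0.83 to -0.47). Ms4a6c went the way of its paralog, at 44.1 against 67.5 CPM and 10.5 against 33 CPM. Ms4a4c was higher in TAS-Seq Ccl5 cells, at 125.7 against 64 CPM, and with the kit its intervals overlapped, at 42.1 (28.8 to 59.4) against 29 CPM (24.2 to 34.5). The T-cell differences were small and moved with the read minimum. With Ccl5 cells called at 5 reads, the TAS-Seq log2 ratio was 0.60 for Ms4a4b and -0.05 for Ms4a6b, so the lower TAS-Seq level of Ms4a6b was nearly gone.

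**Figure D4:**
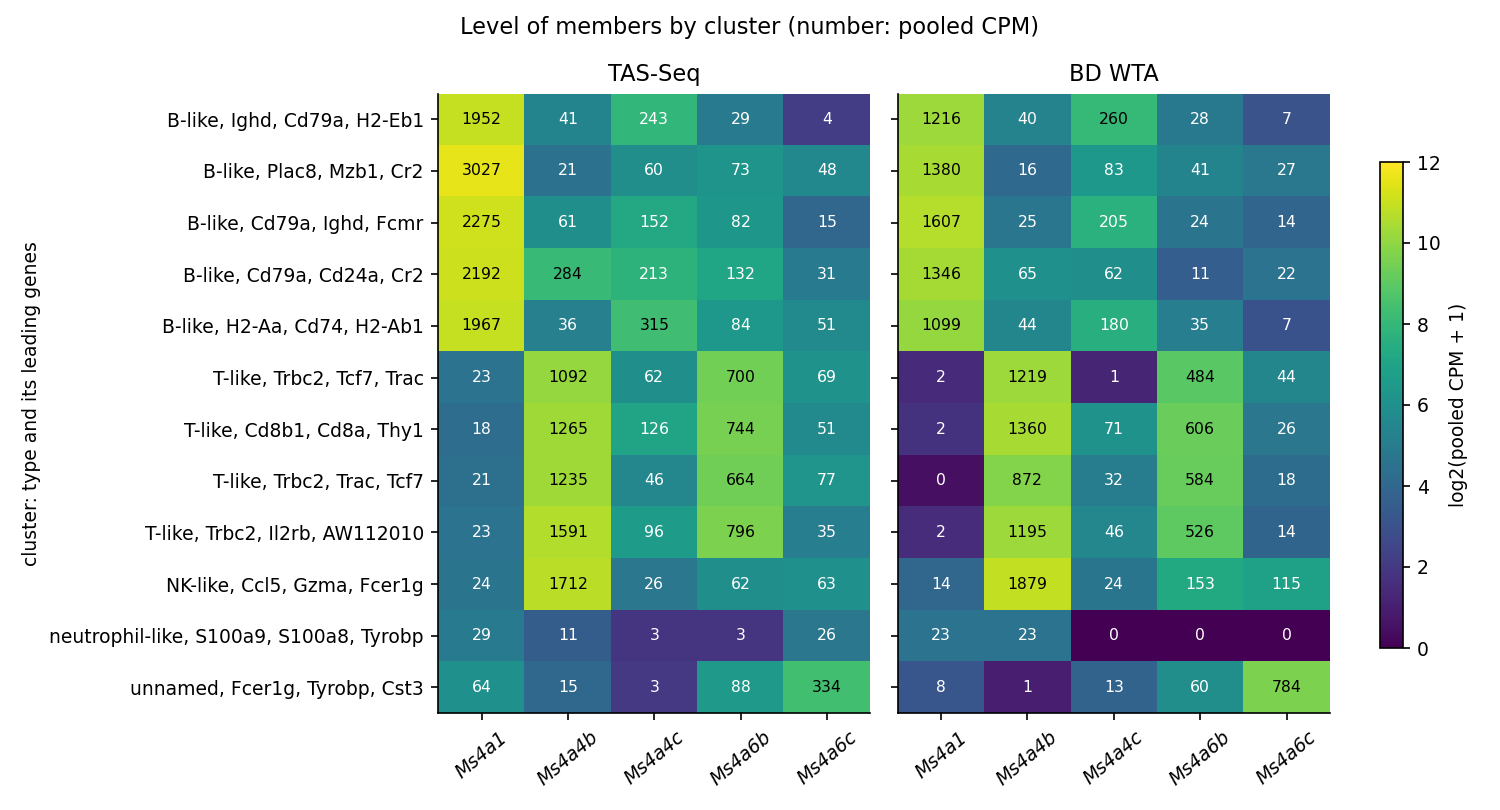
Summed CPM of each member (numbers, with colour as log2(CPM + 1)) in the 12 joint clusters, named by class and leading genes, with TAS-Seq at left and BD WTA at right. Ms4a1 is highest in the Plac8, Mzb1 and Cr2 cluster with TAS-Seq (3027 CPM), Ms4a4b in the NK-like cluster in both libraries (1712 and 1879 CPM), and Ms4a6c in the unnamed cluster (334.1 and 783.6 CPM).

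Members were also read in the same cells. At 5 reads or more, both Ms4a4b and Ms4a6b were found in 169 of 265 T-like cells with TAS-Seq (63.8%) and 111 of 262 with the kit (42.4%). Ms4a1 with Ms4a4c was found in 25.2% of 400 B-like cells and 17.5% of 338. No cell had all 5 members at that minimum, 50 of 707 cells with TAS-Seq and 93 of 645 with the kit had none, and 341 and 339 had exactly 1. Single T-like shares at 5 reads were 84.2% and 77.5% for Ms4a4b, and 71.3% and 52.7% for Ms4a6b. Spearman correlations of this pair in T-like cells were 0.285 and 0.028. Those of Ms4a1 with Ms4a4c in B-like cells were 0.001 and 0.070. Whether the joint shares exceed what the single shares give was not tested.

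Reads of paralogs can be assigned to each other's transcripts, and 31-base words shared between genes give a measure of that. On the strand of the transcript, 17.1% of the 1747 words of Ms4a4c occurred in another gene (13% in Ms4a4b) and 21.9% of the 2020 words of Ms4a6c (13.9% in Ms4a6b). The values were 2.16% for Ms4a1, 5.2% for Ms4a4b and 7.84% for Ms4a6b. On either strand the Ms4a6c value was 58.1%, since 51% of its words lie in BE692007, an antisense noncoding gene that overlaps it. The study's methods align to the forward strand alone. BE692007, named after its values were seen, had 169.1 and 160.9 CPM in B-like and 34.9 and 55.8 CPM in T-like cells. The part of its reads in the Ms4a6c values was not tested.

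At 1 read, co-detection of paralogs was stronger with TAS-Seq. All 95 TAS-Seq T-like cells with an Ms4a4c read also had an Ms4a4b read, against 88.8% of the 170 without one, and with the kit the shares were 85.2% and 84.3%. Ms4a6c was read in 53.9% of TAS-Seq T-like cells with Ms4a6b reads and in 19.6% of those without, and in 17% and 11% with the kit. Of T-like cells with at least 5 Ms4a6c reads, 8 also had 5 of Ms4a6b and 4 did not with TAS-Seq. With the kit these were 10 and 4, so the stronger TAS-Seq co-detection of this pair was not seen at 5 reads. For Ms4a4c with Ms4a4b the numbers were 31 and 1 with TAS-Seq, and 9 and 4 with the kit. Spearman correlations across T-like cells, of log2(reads + 1) at 20000 reads, were 0.388 and 0.014 for Ms4a4b with Ms4a4c (265 and 262 cells) and 0.338 and 0.154 for Ms4a6b with Ms4a6c. All cells of a library share its preparation. The part of reads shared between paralogs in these values was not tested.

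The genes most like each member across all cells (707 and 645 cells, 4298 genes, ranked by the lower Spearman correlation of the 2 libraries) largely named its cell class. For Ms4a1 they were the B-cell receptor genes Cd79a (0.730 and 0.777), Ighm (0.704 and 0.717) and Cd79b (0.724 and 0.699). For Ms4a4b they were the T-cell genes Trbc2 (0.678 and 0.644), Trac (0.610 and 0.606) and Thy1 (0.596 and 0.593), and for Ms4a6b Trbc2 (0.588 and 0.541), Tcf7 (0.537 and 0.534) and Trac (0.533 and 0.538). For Ms4a4c the highest were Ighd (0.193 and 0.265), Zfp318 (0.169 and 0.208) and Fcer2a (0.157 and 0.231), and for Ms4a6c they were Ms4a6b (0.474 and 0.202), AW112010 (0.173 and 0.192) and Atp1b3 (0.299 and 0.171). Correlations this weak in sparse counts are no finding. Within a class they were lower still. The highest in B-like cells was Cd180 for Ms4a1 (0.219 and 0.223), followed by Cd24a and Siglecg, and for Ms4a4c it was Ms4a4b (0.237 and 0.166), followed by Zfp318 and Ighd. In T-like cells the leading genes were Gm8995, Gm8369 and Nkg7 for Ms4a4b, Otulinl, Ccndbp1 and Ifi214 for Ms4a6b, and Unc13d, Ms4a6b and Slfn1 for Ms4a6c, with at most 0.235 in either library except between Ms4a6b and Ms4a6c.

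The other 14 family genes were nearly silent in lymphoid cells. No class of B-like, T-like or NK-like cells exceeded 37.7 CPM of any of them, and that value, of Tmem176a in T-like cells with the kit, came from 6 cells. In the unnamed cluster Tmem176a read 315.9 and 86.3 CPM, Tmem176b 404.0 and 140.1 CPM and Ms4a7 88.1 and 39.6 CPM. Tmem176a and Tmem176b lie on chromosome 6 and are distant relatives of the family, and Ms4a7 is a macrophage gene. Ms4a3, a gene of granulocyte precursors, had 18 reads in 1 of 11 neutrophil-like cells with the kit (51.1 CPM) and none in 10 with TAS-Seq. Ms4a2, the beta chain of the high-affinity IgE receptor, had 102 reads in 1 T-like BD WTA cell and 21 reads in 10 TAS-Seq cells. The remaining genes, Ms4a4a, Ms4a4d, Ms4a5, Ms4a6d, Ms4a8a, Ms4a12, Ms4a14 and Ms4a15, had at most 33.5 CPM in any class, and Ms4a4a was listed for TAS-Seq alone. Ms4a12 and Ms4a20 were added to the family by symbol after the tables were seen, and Ms4a20 had 13 reads with TAS-Seq and 0 with the kit.

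**Figure D5:**
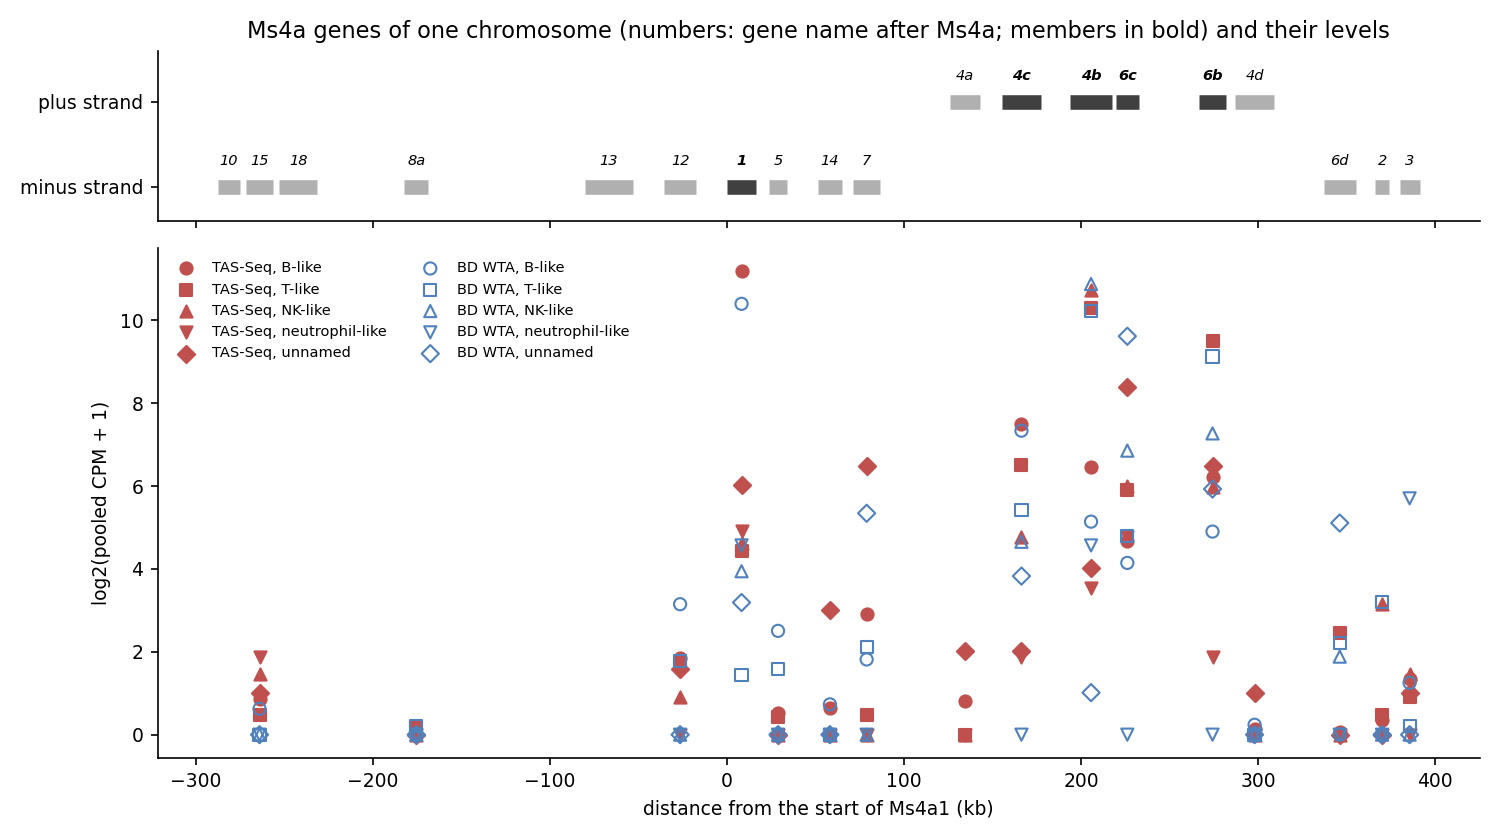
Position of the Ms4a genes relative to the start of Ms4a1 in kilobases (top, members dark and in bold, by strand) and summed level of each gene by class and library as log2(CPM + 1) (bottom, TAS-Seq filled, BD WTA open). The highest points belong to Ms4a1 and to the plus-strand group of Ms4a4c, Ms4a4b, Ms4a6c and Ms4a6b, from 155.1 to 266.8 kb away, whose highest classes differ from gene to gene, and the vertical axis is not scaled by transcript length.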

How the data were processed

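Reads of 2 single-cell libraries were analysed, 1 made by TAS-Seq and 1 by the BD WTA kit. The deposited tables hold raw counts of reads per gene and cell barcode, which the authors made, per the submitters' processing notes, with cutadapt 2.10, Bowtie2 2.4.2 and R 3.6.3 on GRCm38; the study's methods align to forward-strand Ensembl transcripts, and molecular identifiers were not used in the counts. The study's methods describe a background subtraction (distribution-based error correction) for TAS-Seq matrices, which would lower low counts. Whether it was applied to these tables is not given in the sources used here.

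Cells with under 500 genes or over 25% mitochondrial reads were removed. Scanpy 1.11.5 clustered both libraries together (2000 variable genes, 20 components, 15 neighbours, resolution 1) without Ms4a or Tmem176 genes, and naming a cluster took 3 or more raised markers from 1 list. Levels were CPM over a class. Genes at 10 CPM or more in either class, with reads in at least 10 cells, were compared, and a 2-fold difference was counted. Shares were taken after thinning to 20000 reads. Intervals (95%) were exact Poisson or binomial (scipy 1.17.1), differences of shares had Newcombe intervals, ratios conditional binomial intervals, and the limit for 0 reads was 3 reads. The scripts were tested on simulated data.

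Named genes were the 5 members, listed relatives, fixed lists of partners, subset and interferon-stimulated genes, and the 3 genes most like each member over all cells and within its highest class. Ms4a4b and Ms4a6c were ranked within T-like cells because their highest classes were too small. The members and lists were chosen with earlier results of these data known. Sequences came from RefSeq, GRCm38.p6 (Biopython 1.88), and gene positions from GENCODE vM21. With 1 library a method, no replicate test was possible. Alternatives were edgeR 4.0.16 TMM factors, other thinning, read minimums, class calls, doublet removal (Scrublet, rate 0.05) and means over cells.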

Additional observations from a re-analysis of the deposited data

How the results depend on the processing

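No paired analysis was possible because the methods have a single library each and no result comes from a test. Of 135 alternative values, 63 stayed within their counting intervals, 68 moved and 4 changed sign, and using all deposited barcodes moved none. The cause of each move was not tested unless the setting itself states it. In the TAS-Seq over BD WTA log2 ratios, B-like cells alone gave 0.78 for Ms4a1, 1.35 for Ms4a4b, 0.16 for Ms4a4c, 1.34 for Ms4a6b and 0.57 for Ms4a6c. T-like cells alone gave 3.59 for Ms4a1, 1.10 for Ms4a4c, 0.37 for Ms4a6b and 1.15 for Ms4a6c. TMM factors gave 0.76 for Ms4a1, -0.00 for Ms4a4b (a change of sign), 0.30 for Ms4a4c and 0.34 for Ms4a6b, and means over cells gave -0.05 for Ms4a4b (a change of sign), 0.36 for Ms4a6b and 0.31 for Ms4a6c. For the T-like over B-like log2 ratio with TAS-Seq, classes called cell by cell gave -7.00 for Ms4a1, 5.08 for Ms4a4b and 3.75 for Ms4a6b, and separate clustering gave 3.99 for Ms4a4b, 3.42 for Ms4a6b and 1.43 for Ms4a6c. Doublet removal gave 4.29 for Ms4a4b and 3.47 for Ms4a6b, means over cells gave 4.61 for Ms4a4b, -1.39 for Ms4a4c, 3.69 for Ms4a6b and 1.66 for Ms4a6c, and a resolution of 2 gave 1.80 for Ms4a6c. With the kit, classes called cell by cell gave -8.81 for Ms4a1, 5.43 for Ms4a4b, -2.16 for Ms4a4c and 4.50 for Ms4a6b. Separate clustering gave -4.70 for Ms4a1, 5.42 for Ms4a4b, 4.01 for Ms4a6b and -1.33 for Ms4a6c (a change of sign). A resolution of 2 gave 4.98 for Ms4a4b, doublet removal 4.51 for Ms4a6b, and means over cells -2.58 for Ms4a4c and 1.22 for Ms4a6c. At 5 reads or more, Ms4a1 was in 94% and 82% of B-like cells (a difference of 12 points) and 0.755% and 0% of T-like cells, Ms4a4b in 4.5% and 4.44% of B-like and 84.2% and 77.5% of T-like cells, and Ms4a4c in 26.5% and 21.3% of B-like cells (5.2 points) and 12.1% and 4.96% of T-like cells. Ms4a6b was in 7% of TAS-Seq B-like and 71.3% and 52.7% of T-like cells, and Ms4a6c in 1.75% and 2.37% of B-like and 4.53% and 5.34% of T-like cells (-0.815 points, a change of sign). That last difference was 22.5 points at 10000 reads and 53.3 points without thinning. With subset genes called at 5 reads, the BD WTA log2 ratio of Ms4a4c between Fcer2a and Cr2 cells was 0.75, and that of Ccl5 cells was 0.60 for Ms4a4b with TAS-Seq and -0.05 and -0.40 for Ms4a6b. Without the filter on low levels, an alternative chosen after seeing the data, 6331 genes were at least 2-fold higher and 5783 lower in TAS-Seq, against 1007 and 591. Without thinning, 1 of the 3 genes most like Ms4a4c in B-like cells was shared. At this depth the NK-like, neutrophil-like and unnamed classes, of 10 to 26 cells, limit every level given for them.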
